A study of Mus musculus with 18 samples.

Results

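The keratins and cornified envelope genes measured here are the structural genes of epithelial cells in the mouse uterus. Members were all keratins (Krt) whose symbol ends in a number, all small proline-rich genes (Sprr), and Tgm1, Lor, Ppl, Evpl, Ivl, Flg, Cnfn, Sbsn and Krtdap. Keratins with a letter after the number, such as Krt6a and Krt6b, were left out. Of the 22238 gene symbols counted, 71 belonged to these families, and 29 of the 71 reached at least 1 CPM, counts scaled to a common library total, in at least 3 of 18 libraries. Members were thus chosen by their measured levels, so being expressed is not a finding for any of them. By textbook class the 29 were 4 of 5 keratins of simple epithelium, 9 of 17 keratins of stratified epithelium, 4 of 20 hair-type keratins, 2 of 4 other keratins and 10 of 25 cornified envelope genes. Of the symbols that failed, 8 had no count in any library. In the third highest library, which decides the rule, Krt39 had 1.0 CPM and Lor 1.08 CPM, the lowest members inside the threshold. Sprr2a1 with 0.779 CPM, Krt84 with 0.747 CPM, Sprr2a2 with 0.711 CPM and Krt20 with 0.540 CPM lay just outside. Krt39, Krt79, Krt81 and Krt86 passed through estrogen-treated libraries alone, and Sprr2a3 through a single group, so these had to differ between groups. 11 members passed in all 18 libraries.

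Total RNA was sequenced from homogenised whole uterus of adult CD-1 mice, an outbred stock, and all animals of all groups had been ovariectomized, which removes the main source of ovarian hormones. Animals had received doxorubicin (DOX), an anthracycline chemotherapy drug, or phosphate-buffered saline (PBS), and within each arm oil (OIL), estradiol (E2) or progesterone (P4). This made 6 groups of 3 libraries, named PBS OIL, DOX OIL, PBS E2, DOX E2, PBS P4 and DOX P4. By its title the series asks whether DOX changes what estrogen does to uterine gene expression. The labels give no dose or time, and do not state that each library is a separate animal. P-values therefore measure only how far these libraries spread, which may be technical.

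Keratins are the intermediate filament proteins of epithelial cells, and a filament needs 1 type I and 1 type II partner. Krt8 and Krt7 (type II) and Krt18 and Krt19 (type I) build the filaments of simple, single-layered epithelia such as the uterine lumen and glands. Krt5, Krt14 and Krt15 mark the basal layer of stratified epithelia, Krt4 and Krt13 the upper layers of non-keratinised stratified epithelia such as vagina and oesophagus, and hair-type keratins harden the hair shaft. The cornified envelope is a protein shell that transglutaminase 1 (Tgm1) cross-links under the membrane of terminally differentiated squamous cells, from the plakins envoplakin (Evpl) and periplakin (Ppl), loricrin (Lor) and the Sprr proteins. Estrogen is known to drive stratification and cornification in the rodent vagina, whereas the uterine lining stays a single layer.

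Libraries held 18042357 to 39783785 counts, the highest being PBS E2 replicate 1. Levels below are CPM after TMM scaling (trimmed mean of M values), fold changes are from edgeR's quasi-likelihood test on 15494 genes, and a gene was called at a Benjamini-Hochberg adjusted p under 0.05. Errors of log2 fold changes are SE with n = 3 libraries a group. The 20 listed markers of uterine epithelium were all measured and summed to between 755 and 1394 CPM over the libraries. In whole tissue, fewer cells of a type and less RNA per cell cannot be told apart. Some libraries stood apart in these genes. PBS E2 replicate 1 was far above replicates 2 and 3 in several Sprr genes and Krt4, and its summed level of 18 adipocyte markers, 8734 CPM, was the highest of PBS E2, whose lowest library had 792 CPM. DOX E2 replicate 2, DOX P4 replicate 2, PBS OIL replicate 3 and PBS P4 replicate 3 were the 4 highest libraries for Col17a1, a hemidesmosome collagen of basal squamous cells, and carried most of the basal keratin signal. Results that rest on these libraries are given with and without them.

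Keratin genes sit in 2 dense clusters, type I on chromosome 11 and type II on chromosome 15, and the 3 abundant hair-type members are neighbours. On build GRCm38 with GENCODE M21, Krt81 (chr15:101459061-101463751), Krt86 (chr15:101473478-101479986) and Krt83 (chr15:101485130-101491512) lie next to Krt7 (chr15:101411043-101430313), the 4 genes spanning 80.5 kb. Their coding sequences are near copies: Krt81 and Krt83 were identical at 93.9% of aligned bases, Krt81 and Krt86 at 94.0%, and Krt83 and Krt86 at 92.9%. The stretch of 120 coding bases that differed most among them is shown because it is what allows reads to be told apart, with the 24 differing positions in capitals, 5′ to 3′, from coding base 1210 in Krt81 and Krt86 and 1204 in Krt83.
Krt81: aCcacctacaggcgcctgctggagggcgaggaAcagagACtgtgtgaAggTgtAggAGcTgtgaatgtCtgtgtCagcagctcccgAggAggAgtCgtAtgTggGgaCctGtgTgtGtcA
Krt83: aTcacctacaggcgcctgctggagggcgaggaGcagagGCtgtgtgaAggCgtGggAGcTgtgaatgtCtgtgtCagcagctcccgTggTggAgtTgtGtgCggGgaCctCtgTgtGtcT
Krt86: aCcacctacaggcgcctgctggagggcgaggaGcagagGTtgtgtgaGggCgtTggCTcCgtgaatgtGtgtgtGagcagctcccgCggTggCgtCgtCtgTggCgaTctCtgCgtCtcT
Of all stretches of 75 bases in the transcripts, 30.9% in Krt81, 30.6% in Krt86 and 11.1% in Krt83 occurred in another of these genes. No source used here says how the authors' counting treated reads that match several genes, so part of the signal could be shared between the 3 genes, least for Krt83.

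The Sprr2 proteins are short and built of repeats, and the coding sequences of a pair of responsive members are shown with the codons for the repeat cysteine, proline, glutamate, proline, cysteine in capitals. Sprr2f (chr3:92365187-92366442) held 4 such repeats and Sprr2b (chr3:92316620-92318085) held 3.
Sprr2f: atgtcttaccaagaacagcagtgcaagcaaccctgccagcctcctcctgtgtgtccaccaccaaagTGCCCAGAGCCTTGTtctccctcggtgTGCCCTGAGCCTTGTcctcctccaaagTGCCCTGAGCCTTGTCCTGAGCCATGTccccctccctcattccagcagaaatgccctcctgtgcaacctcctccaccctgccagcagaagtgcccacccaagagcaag
Sprr2b: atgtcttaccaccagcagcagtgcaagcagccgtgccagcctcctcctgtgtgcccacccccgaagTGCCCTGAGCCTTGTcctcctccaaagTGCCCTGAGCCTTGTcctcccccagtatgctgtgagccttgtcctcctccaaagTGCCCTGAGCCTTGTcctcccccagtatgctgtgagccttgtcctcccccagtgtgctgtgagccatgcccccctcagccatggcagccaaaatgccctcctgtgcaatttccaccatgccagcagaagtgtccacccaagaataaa
No stretch of 75 bases of the Sprr2f or Sprr2g transcripts occurred in another Sprr2 transcript, against 3.94% for Sprr2b. The Sprr2a copies were another case: the coding sequences of Sprr2a1 and Sprr2a2 were identical, Sprr2a3 differed from them at 3 of 249 bases, and 47.5% of the 75-base stretches of Sprr2a3 recurred in other copies. Values of Sprr2a3 are therefore uncertain.

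Hair-type keratins were near 0 without E2 and higher with it in both arms. Krt83, a type II keratin of the hair cortex, had 77.1, 29.8 and 63.1 CPM in PBS E2 and 61.3, 48.4 and 76.1 CPM in DOX E2. The 12 libraries without E2 had between 0 and 1.27 CPM of Krt83. Every E2 library was above every other library. Over PBS OIL, which held a single count in all 3 libraries together, Krt83 was 4029-fold higher in PBS E2, with a 95% counting interval of 723 to 159159 that covers counting error only. In the DOX arm its fitted log2 change was 9.30 ± 0.87.

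Krt81, its neighbour and a type II hair cortex keratin, had 17.1, 7.53 and 14.3 CPM in PBS E2 and 13.0, 10.2 and 19.5 CPM in DOX E2. No count of Krt81 was found in PBS OIL, so that PBS E2 was at least 305-fold higher, taking 3 counts over the group as the floor. DOX OIL held 1 count, and DOX E2 was 951-fold higher with a counting interval of 170 to 37590. Krt86, the third gene of the trio, had 12, 6.72 and 11.4 CPM in PBS E2 and 12.9, 8.20 and 12.7 CPM in DOX E2, against 0 to 0.180 CPM in the other 12 libraries. With 2 counts in PBS OIL, its ratio was 344 with an interval of 94.9 to 2844, and in the DOX arm its log2 change was 7.10 ± 0.63. Krt39, a type I hair keratin on chromosome 11, stayed near the threshold with 0.576 to 1.48 CPM in PBS E2 and 0.464 to 1.27 CPM in DOX E2.

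All 4 hair-type members were called higher under E2 in both arms, where 29.6% of all genes were called higher and 31.9% lower in the PBS arm and 35.1% higher and 37.5% lower in the DOX arm. Since Krt81, Krt86 and Krt39 entered through E2 libraries alone, and Krt83 through them and 1 other library, this count and the E2 folds of these genes are a description. The comparison that the rule left free is DOX against PBS under E2, and there 0 of 4 passed, against 41% of all genes called in that comparison. The log2 difference was 0.13 ± 0.48 for Krt83 with a 95% interval of -0.89 to 1.15, 0.13 ± 0.52 for Krt81 (-1.0 to 1.26), 0.16 ± 0.40 for Krt86 (-0.68 to 1.01) and 0.10 ± 0.62 for Krt39 (-1.24 to 1.44). The DOX E2 and PBS E2 libraries overlapped for each of these genes, and the intervals still leave room for changes of about the size seen in other members. At an unadjusted p under 0.05, 15 of the 29 members and 7645 of the 15494 genes differed in this comparison, which are like shares.

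**Figure D1:**
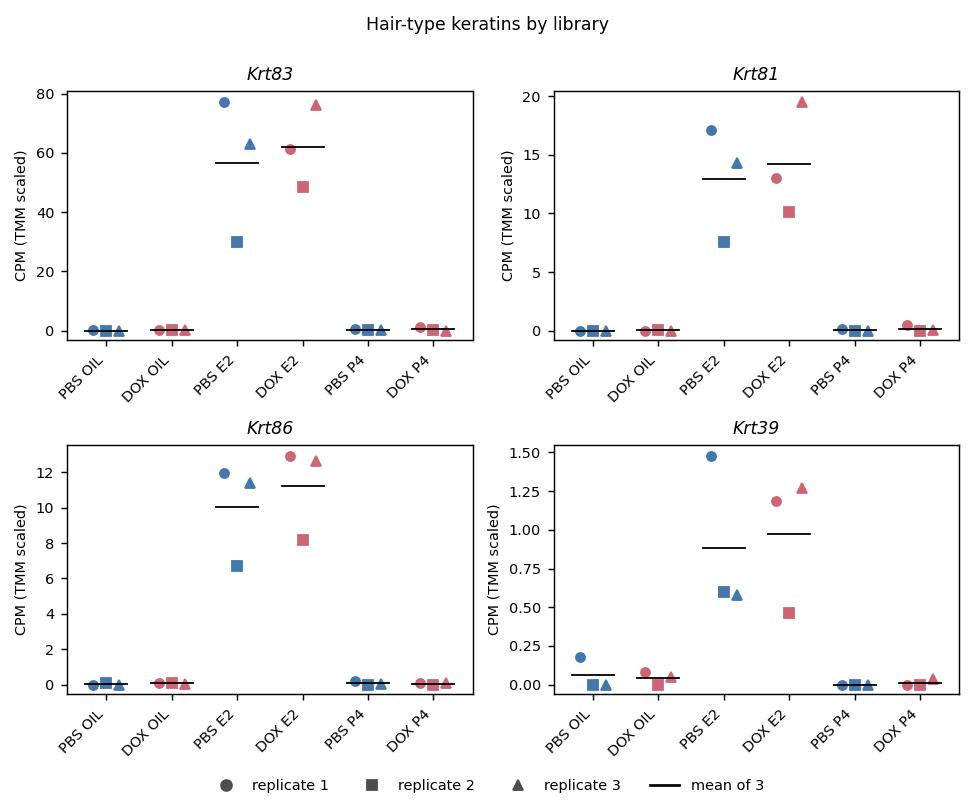
TMM-scaled CPM (vertical axis, linear) of Krt83, Krt81, Krt86 and Krt39 in each library of the 6 groups, with a line at the mean of 3. The 6 E2 libraries lie above the 12 others for Krt83, Krt81, Krt86 and Krt39, and the PBS E2 and DOX E2 libraries overlap.

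Most other listed genes of the hair shaft were at or near 0. Of 11 listed Krtap genes, which encode the matrix proteins of the hair shaft, 10 had no count in any library and the other had 1 count in all 18. Hoxc13 and Foxn1, transcription factors of hair differentiation, had 2 and 15 counts over all libraries. In the list of 18 hair follicle markers in the table, 10 were at 0 and 4 were tested, and the sum of the list was 27.6 to 34.3 CPM in PBS E2, 35.6 to 39.0 CPM in DOX E2 and 40 to 61.0 CPM in PBS OIL. Most of that sum came from Lef1, Msx2 and Tchh. Tchh encodes trichohyalin, a structural protein of the inner root sheath, and had 5.29 to 7.64 CPM in PBS E2 and 9.28 to 10.3 CPM in PBS OIL. The remaining 16 hair-type keratins of the family stayed under the level threshold, 3 of them at 0 in all libraries. Krt84, next along the cluster, reached 3.44 CPM of the library total in its highest library.

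Along the type II cluster the response to E2 was patchy. Krt80, an outlying keratin at the edge of the cluster, was not called in either arm, and its level spanned 13.4 to 16.4 CPM in PBS E2 and 14.6 to 17.1 CPM in PBS OIL. Krt7, Krt81, Krt86 and Krt83 followed within 138 kb of the start of Krt80 and were all called higher under E2 in both arms. Of the family symbols between Krt83 and Krt4 only Krt5 passed the level threshold, and it was not called in the PBS arm. Krt4 and its neighbour Krt79 were both called higher in both arms, and Krt8 and Krt18 at the far end were not called higher in the PBS arm. The PBS arm call of Krt79 ended without PBS E2 replicate 1 (0.65, adjusted p = 0.37, edgeR) and without PBS OIL replicate 1 or 3.

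**Figure D2:**
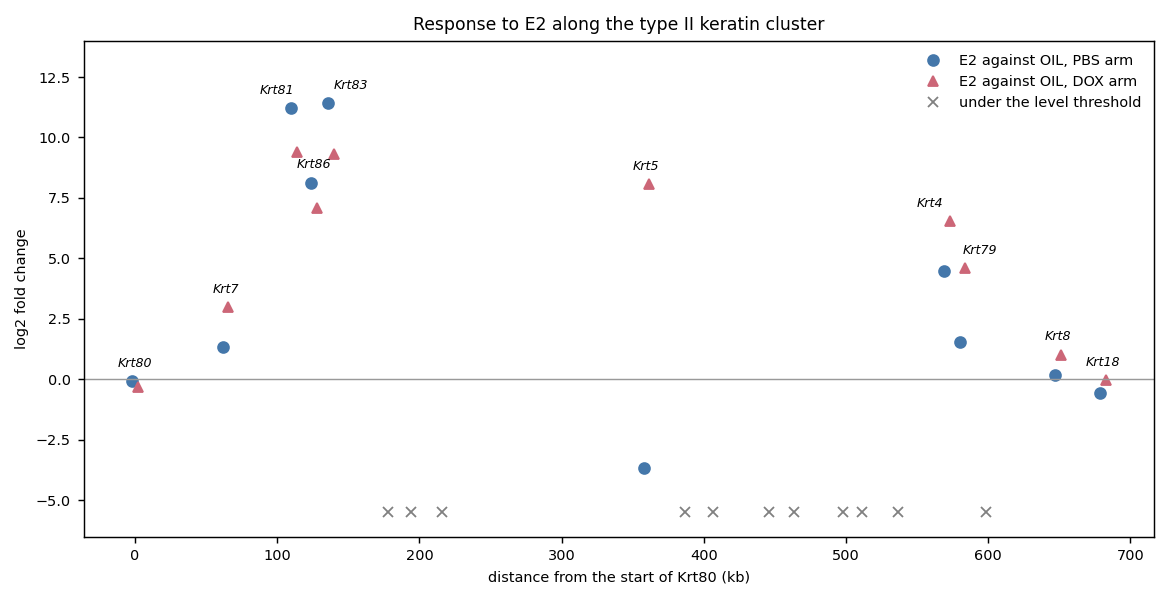
Fitted log2 fold change of E2 against OIL (vertical axis) in the PBS arm (circles) and DOX arm (triangles) for members in the type II cluster, by distance of the gene's lower coordinate from that of Krt80 in kb, with family members under the level threshold marked by crosses at the bottom. In the PBS arm Krt81, Krt86 and Krt83 stand highest, in the DOX arm Krt5 lies above Krt86, and Krt80 and Krt18 lie near 0 (Krt81 had no count in PBS OIL, so its height there depends on the fit's prior count).

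Keratins of simple epithelium carried most of the keratin RNA in every group and changed less. Krt8 had 139, 93.4 and 120 CPM in PBS OIL, 156, 142 and 104 CPM in PBS E2, and 287, 251 and 179 CPM in DOX E2. The DOX E2 libraries were the 3 highest E2 libraries. Krt8 was called higher in DOX E2 than in PBS E2 by 0.84 ± 0.22 on the log2 scale (adjusted p = 0.00725, edgeR) and higher than in DOX OIL by 1.02 ± 0.22 (adjusted p = 0.00063). In the PBS arm its E2 change was 0.19 ± 0.22 with an interval of -0.28 to 0.66, and the difference between the arms missed the threshold at 0.83 ± 0.31 (adjusted p = 0.0652). Its partner Krt18 had 241, 120 and 166 CPM in PBS OIL, 132, 117 and 104 CPM in PBS E2 and 175, 162 and 150 CPM in DOX E2. Krt18 was called lower under E2 in the PBS arm by -0.58 ± 0.23 (adjusted p = 0.0366), although the groups overlapped. The call ended without PBS OIL replicate 1, where Krt18 was highest, as it did without any of PBS OIL replicate 3, PBS E2 replicate 2 and PBS E2 replicate 3.

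Krt7, the type II keratin of ducts and glands, changed most of this class. It had 34.7, 27.8 and 27.4 CPM in PBS OIL, 113, 59.0 and 56.6 CPM in PBS E2 and 253, 253 and 180 CPM in DOX E2, with 24.0 to 33.9 CPM in DOX OIL. The 3 groups did not overlap. The rise with E2 was 1.35 ± 0.27 in the PBS arm (adjusted p = 0.000417, edgeR) and 2.97 ± 0.28 in the DOX arm (adjusted p = 1.14e-07). The difference between these, which tests whether DOX changed the E2 response, was 1.62 ± 0.37 (adjusted p = 0.00722), and 2.02 without PBS E2 replicate 1. Krt19, a type I keratin of simple epithelia without a fixed partner, had 116, 102 and 110 CPM in PBS OIL, 145, 127 and 106 CPM in PBS E2 and 174, 172 and 128 CPM in DOX E2. It was called higher under E2 in the DOX arm by 0.60 ± 0.17 (adjusted p = 0.00414), with 0.21 ± 0.17 in the PBS arm and 0.33 ± 0.17 for DOX under E2, which was 0.46 and called without DOX E2 replicate 3.

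Of the 4 simple keratins, 2 were called higher by DOX under E2 (Krt7 and Krt8) and none lower. Of 20 markers of uterine epithelium 6 were called higher and 0 lower, where 20.4% of all genes were called higher and 20.6% lower, and their sum was 1030 to 1394 CPM in DOX E2 against 790 to 1090 CPM in PBS E2. Their part in the rise of Krt7 and Krt8 was not tested. The mesothelial marker list, which shares these 4 keratins, had 2 called higher, Krt7 and Krt8, and 5 called lower, none of them a keratin. Its median log2 change was -1.12 over 11 genes. The list summed to 822 to 978 CPM in DOX E2 and 631 to 821 CPM in PBS E2. These sums include the 4 keratins, so they do not show the level of the other mesothelial markers. Of the oviduct markers 8 of 10 were in the table, with 0 called higher and 2 lower and sums of 109 to 114 CPM in DOX E2 and 100 to 135 CPM in PBS E2.

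Counted per kilobase of transcript, which allows levels of different genes to be compared, Krt18 was the highest simple keratin in PBS OIL with a median of 116 CPM per kb, above Krt19 with 69.5 and Krt8 with 61.3, and Krt7 was lowest with 6.79. The libraries of Krt8 and Krt19 overlapped. In DOX E2 the medians were 128 CPM per kb for Krt8, 113 for Krt18, 109 for Krt19 and 61.7 for Krt7, and the first 3 overlapped. Summed over members, the ratio of type II to type I keratin RNA was 0.336 to 0.391 in PBS OIL, 0.370 to 0.390 in DOX OIL, 0.667 to 0.920 in PBS E2 and 1.08 to 1.18 in DOX E2. P4 libraries had 0.513 to 0.529 in the PBS arm and 0.447 to 0.555 in the DOX arm. The DOX E2 range lay above that of PBS E2 and the PBS E2 range above all others. Of all member RNA per kb, simple keratins made up 80.4% to 87.6% in PBS OIL, 44.0% to 75.1% in PBS E2 and 45.7% to 53.8% in DOX E2, and hair-type keratins 7.49% to 14.9% in PBS E2 and 4.47% to 8.69% in DOX E2. Cornified envelope genes took 11% to 35.4% in PBS E2, where the highest share was far from the lowest, and 29.8% to 31.1% in DOX E2.

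Of the 9 keratins of stratified epithelium, 4 were called higher in DOX E2 than in PBS E2, where 20.4% of all genes were. Krt4, a keratin of the upper layers of mucosal squamous epithelium, had 2.05, 1.11 and 0.606 CPM in PBS OIL, 68.2, 3.36 and 13.1 CPM in PBS E2 and 71.1, 115 and 108 CPM in DOX E2, against 0.995 to 1.10 CPM in DOX OIL. PBS E2 replicate 1 was close to the DOX E2 libraries and the other PBS E2 libraries were far below. E2 raised Krt4 by 4.50 ± 0.83 in the PBS arm (adjusted p = 0.000236, edgeR) and 6.54 ± 0.89 in the DOX arm (adjusted p = 6.78e-06). Under E2 Krt4 was higher with DOX by 1.78 ± 0.67 (adjusted p = 0.0442), and by 3.56 without PBS E2 replicate 1. That call missed the threshold without any of the other 5 E2 libraries, and the difference between arms did too, at 2.04 ± 1.20 (adjusted p = 0.228), although without PBS E2 replicate 1 it was 3.83 with an adjusted p of 0.00265.

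Krt79, a keratin of hair canal and sebaceous duct, had 1.78, 0.325 and 0.733 CPM in PBS E2 and 8, 9.08 and 5.13 CPM in DOX E2, with 0.105 to 0.604 CPM in the OIL libraries. All DOX E2 libraries were above all others. The log2 difference of DOX under E2 was 2.89 ± 0.52, and the E2 response differed between the arms by 3.05 ± 0.84. Krt79 met the level rule through E2 libraries alone, DOX E2 among them, so its values are a description. Krt12, best known from the corneal epithelium, had 2.90, 0.379 and 0.995 CPM in PBS E2 and 9.09, 11 and 7.06 CPM in DOX E2, a difference of 2.60 ± 0.83 (adjusted p = 0.0204) that missed the threshold without PBS E2 replicate 2, PBS E2 replicate 3 or DOX E2 replicate 2. Krt17, a keratin induced in stressed and wounded epithelium, had 2.41, 4.41 and 1.72 CPM in PBS OIL, 12.4, 2.33 and 12.4 CPM in PBS E2 and 22.4, 14.8 and 22.8 CPM in DOX E2. It rose with E2 in the DOX arm by 3.39 ± 0.63 (adjusted p = 0.000162) and in the PBS arm by 1.67 ± 0.60 (adjusted p = 0.0234), where the groups overlapped and the call ended without any of PBS OIL replicate 1 or 3 and PBS E2 replicate 1 or 3, with 1.37 as the lowest value, while DOX against PBS under E2 gave 1.14 ± 0.57 (adjusted p = 0.12). Krt10, the suprabasal keratin of skin, went the other way in the PBS arm, from 4.86, 4.04 and 4.66 CPM in PBS OIL to 2.42, 3.36 and 2.83 CPM in PBS E2 (log2 change -0.66 ± 0.23, adjusted p = 0.0188), a call that ended without PBS E2 replicate 1 or PBS OIL replicate 1.

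A few libraries held most of the basal keratin counts. Krt5, the type II keratin of basal cells, had 1.55, 51.6 and 0.863 CPM in DOX E2, 0.0278, 0.650 and 0 CPM in PBS E2, and 0.267, 0.0464 and 7.09 CPM in PBS OIL. Under P4 it had 0.0900, 0 and 6.2 CPM with PBS and 0.136, 16.2 and 4.05 CPM with DOX. In DOX E2, PBS OIL and PBS P4 a single library held nearly all of the signal. The edgeR test called Krt5 higher in DOX E2 than in PBS E2 by 6.52 ± 2.33 (adjusted p = 0.0351) and higher than in DOX OIL by 8.07 ± 2.68 (adjusted p = 0.0131). Without DOX E2 replicate 2 these were 2.58 (adjusted p = 0.399) and 4.17 (adjusted p = 0.177), and the first also missed the threshold without any 1 of the PBS E2 libraries.

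Krt15 and Krt14, the type I partners of basal cells, were high in the same libraries. Krt15 had 1.39, 16.4 and 0.780 CPM in DOX E2, 0.136, 23.8 and 4.63 CPM in DOX P4, 0.579, 0.557 and 7.13 CPM in PBS OIL, 0.135, 0.129 and 7.19 CPM in PBS P4 and at most 0.434 CPM in PBS E2 and DOX OIL. Krt14 had 0.671, 13.4 and 0.739 CPM in DOX E2, and the E2 change in the DOX arm fell from 4.68 ± 1.58 (adjusted p = 0.0142, edgeR) to 1.90 (adjusted p = 0.276) without DOX E2 replicate 2. For Krt15 the same step took 4.52 ± 1.87 (adjusted p = 0.04) to 2.01 (adjusted p = 0.37), and the call also ended without any 1 of the DOX OIL libraries. Krt13, the partner of Krt4, had 1.45, 4.80 and 1.23 CPM in DOX E2 and 0.134 to 0.280 CPM in PBS OIL. Its E2 change in the DOX arm was 3.96 ± 1.16 (adjusted p = 0.00615, edgeR). Without DOX E2 replicate 2 it was 3.07 (adjusted p = 0.0355). Krt13 would not have met the level rule without the DOX E2 libraries, so these values are a description.

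Some other basal squamous genes were high in the same libraries. Col17a1 had 13.2 CPM in DOX E2 replicate 2, 9.66 in DOX P4 replicate 2, 8.67 in PBS OIL replicate 3 and 3.74 in PBS P4 replicate 3, against 1.05 to 3.11 CPM in the other 14 libraries. These 4 were picked by Col17a1, so its higher level in them is no test. DOX P4 replicate 3, with 4.05 CPM of Krt5, had 2.68 CPM of Col17a1 and lay outside the 4. Trp63, which encodes the basal cell regulator p63, was at 4.02 CPM in DOX E2 replicate 2 and 0.362 and 0.370 CPM in its 2 companions, but at 1.66 CPM in PBS P4 replicate 3 it was below PBS OIL replicates 1 and 2 (2.85 and 2.69 CPM). Dsg3, a desmosomal cadherin of basal cells, had 4.18 CPM in DOX E2 replicate 2 and 0.14 CPM in PBS OIL replicate 3. The whole list of 14 squamous basal markers was in the table, with none at 0 in every library. It summed to 127 to 179 CPM in DOX E2, highest in replicate 2, and 120 to 137 CPM in PBS E2. For DOX under E2, 2 of the 10 tested were called higher and 1 lower, where 20.4% and 20.6% of all genes were. The part of these markers in the basal keratin values was not tested. With the 4 libraries highest in Col17a1 left out, a step chosen after the data were seen, the DOX difference of Krt5 under E2 was 2.54 (adjusted p = 0.178), and its E2 change in the DOX arm, 4.15, kept its call (adjusted p = 0.0357).

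**Figure D3:**
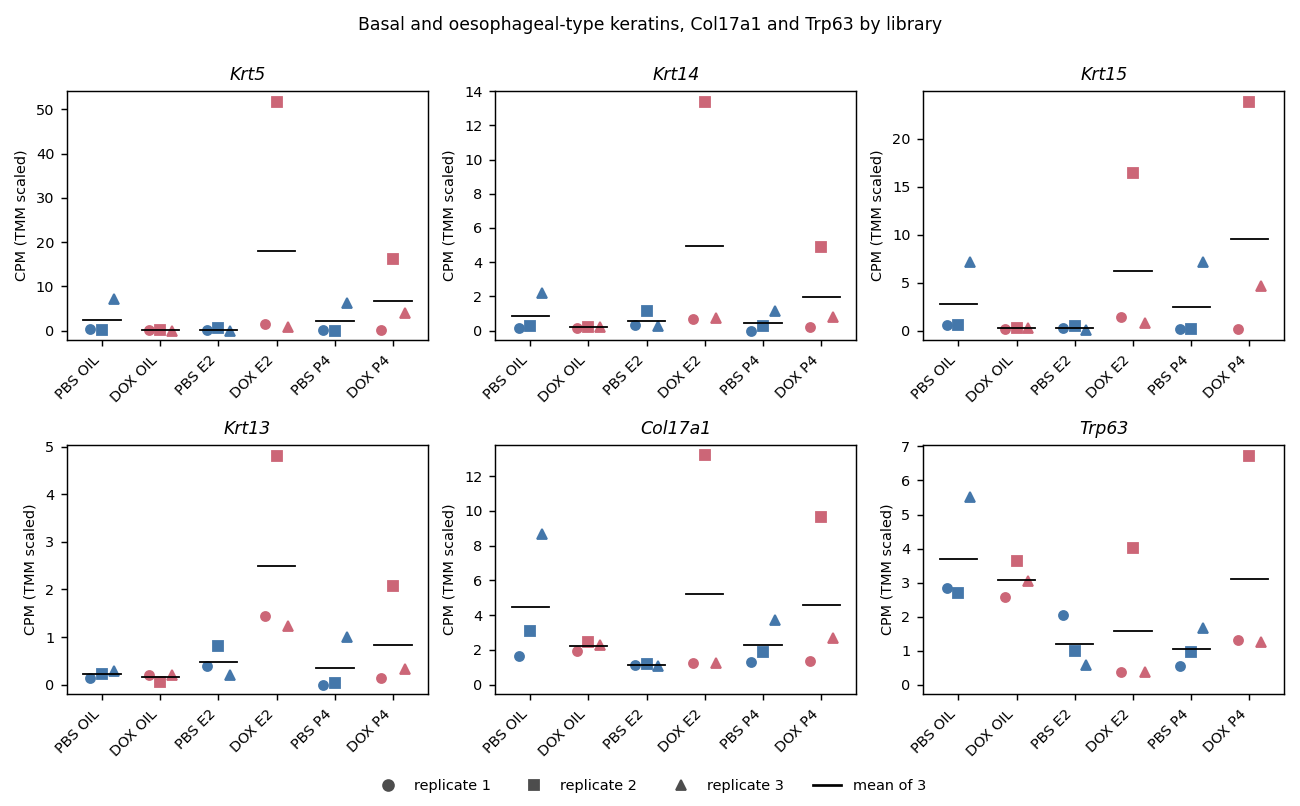
TMM-scaled CPM (vertical axis, linear) of Krt5, Krt14, Krt15 and Krt13 and of the basal cell genes Col17a1 and Trp63 in each library of the 6 groups, with a line at the mean of 3. DOX E2 replicate 2 is the highest library for Krt5 (51.6 CPM), Krt14 (13.4 CPM) and Col17a1 (13.2 CPM), and DOX P4 replicate 2 for Krt15 (23.8 CPM).

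Of the 9 stratified keratins, 8 were called higher under E2 in the DOX arm, where 35.1% of all genes were. This count ran from 5 to 8 over the fits that left out 1 library. Krt5, Krt14 and Krt15 lost their calls without DOX E2 replicate 2. Krt79 and Krt13 met the level rule only with E2 libraries, so their part in the count is a description. In the PBS arm 3 of 9 were called higher and 1 lower, where 29.6% and 31.9% of all genes were. The share called higher was near that of all genes, and the share called lower was below it. Those called higher for DOX under E2 were Krt4, Krt5, Krt12 and Krt79, and 5 were not called. Without DOX E2 replicate 2, 8 of the 11 members called for DOX under E2 kept their call, and no other member gained one. The lost calls were those of Krt4, Krt5 and Krt12, so that Krt79 was the only stratified keratin still called.

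All 5 Sprr members were called higher under E2 in the DOX arm, where 35.1% of all genes were. Sprr2a3 met the level rule through DOX E2 alone, so its call there is no test. In the PBS arm 3 of the 5 were called higher, where 29.6% of all genes were. Sprr1a, Sprr2b and Sprr2g would not have met the level rule without the E2 libraries, so their E2 calls and both counts are a description. PBS E2 replicate 1 stood apart from its group in Sprr1a, Sprr2b, Sprr2f and Sprr2g. Sprr2f had 0.535, 3.16 and 0.979 CPM in PBS OIL, 52.0, 2.38 and 6.34 CPM in PBS E2 and 78.1, 92.6 and 62.5 CPM in DOX E2, with 0.290 to 1.05 CPM in DOX OIL. Replicate 2 of PBS E2 was below replicate 2 of PBS OIL, whereas every DOX E2 library was above every other library. The E2 change was 3.73 ± 1.04 in the PBS arm (adjusted p = 0.00572, edgeR), which became 1.49 (adjusted p = 0.158) without PBS E2 replicate 1, and 6.82 ± 1.20 in the DOX arm (adjusted p = 9.43e-05). DOX against PBS under E2 gave 1.91 ± 0.88 (adjusted p = 0.0945), and 4.15 (adjusted p = 0.00166) without that library. The difference between the arms was 3.09 ± 1.55 (adjusted p = 0.16), or 5.32 (adjusted p = 0.00559) without it.

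Sprr2g, annotated as a polymorphic pseudogene, had 0.713, 0.371 and 0.839 CPM in PBS OIL, 58.7, 4.28 and 6.71 CPM in PBS E2 and 36.5, 27.9 and 33.6 CPM in DOX E2. Sprr1a, a cross-linked envelope precursor, had 0.0891 to 0.140 CPM in PBS OIL, 17.8, 1.73 and 1.47 CPM in PBS E2 and 14.7, 17.0 and 11.8 CPM in DOX E2. Both were called higher under E2 in the PBS arm, by 5.18 ± 1.26 (adjusted p = 0.00212, edgeR) and 5.99 ± 1.3 (adjusted p = 0.000874), and kept their calls without PBS E2 replicate 1 at 3.09 and 3.84. In the DOX arm they rose by 5.11 ± 1.22 and 6.52 ± 1.25. For DOX under E2 neither was called, with 0.48 ± 0.96 for Sprr2g and 1.02 ± 0.86 for Sprr1a, and Sprr1a was called at 3.17 (adjusted p = 0.00958) without PBS E2 replicate 1.

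Sprr2b was highest in DOX E2. It had 11.5, 16.2 and 13.0 CPM in DOX E2, 5.96, 0.379 and 1.31 CPM in PBS E2, 3.67 CPM in PBS OIL replicate 2 and no count in the other OIL libraries of both arms. DOX E2 was at least 293-fold above DOX OIL, taking 3 counts over the group as the floor. Sprr2a3 had 3.77, 3.35 and 2.46 CPM in DOX E2 and 0.780, 0 and 0.472 CPM in PBS E2, a log2 difference of 2.81 ± 0.85, and DOX E2 was at least 67.9-fold above DOX OIL, which held none. Since Sprr2a3 met the level rule through DOX E2 alone, these values are a description, and its place in the counts of members called is no test.

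Tgm1, the enzyme that cross-links the envelope, was called higher under E2 in both arms. It had 1.56, 2.74 and 1.91 CPM in PBS OIL, 2.16, 2.89 and 1.68 CPM in DOX OIL, 24.4, 12 and 15.1 CPM in PBS E2 and 46.6, 39.4 and 53.5 CPM in DOX E2. The OIL, PBS E2 and DOX E2 libraries did not overlap. E2 raised it by 3.06 ± 0.30 in the PBS arm (adjusted p = 4.68e-07, edgeR) and 4.37 ± 0.31 in the DOX arm (adjusted p = 6.05e-09). Under E2 it was higher with DOX by 1.43 ± 0.27 (adjusted p = 0.000761), and the difference between the arms, 1.31 ± 0.41, was called (adjusted p = 0.0333). That last call was lost when any of 7 of the 12 libraries was left out, and its value ran from 1.05 to 1.65 over the 12 fits.

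Ppl and Sbsn were called lower in DOX E2, unlike Tgm1 and Lor. Ppl, a plakin that ties the envelope to desmosomes and keratin filaments, had 85.0, 83.2 and 85.9 CPM in PBS OIL, 88.4, 74.7 and 87.9 CPM in DOX OIL, 89.8, 75.7 and 83.6 CPM in PBS E2 and 35.6, 30.8 and 38.3 CPM in DOX E2. Only the DOX E2 libraries were low, each under every other library. Ppl was lower in DOX E2 than in PBS E2 by -1.25 ± 0.10 on the log2 scale (adjusted p = 1.14e-06, edgeR), while its E2 change in the PBS arm was -0.03 ± 0.09 with an interval of -0.23 to 0.17. The difference between the arms was -1.23 ± 0.13 (adjusted p = 7.33e-05), and it was called in each of 12 fits that left out 1 library. Evpl, its partner plakin, had 13.1, 26.0 and 17.9 CPM in PBS E2 and 13.6, 13.6 and 13.3 CPM in DOX E2, a difference of -0.49 ± 0.23 (adjusted p = 0.104) that became -0.70 and was called without PBS E2 replicate 1.

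Sbsn, suprabasin, a secreted protein of differentiating epidermis, had 13.1, 14.2 and 11.8 CPM in PBS OIL, 7.52, 5.37 and 7.02 CPM in PBS E2 and 2.01, 2.42 and 3.78 CPM in DOX E2. The 3 groups did not overlap. It fell with E2 by 0.97 ± 0.28 in the PBS arm (adjusted p = 0.0068, edgeR) and by 1.94 ± 0.29 in the DOX arm (adjusted p = 2.12e-05), and DOX lowered it further under E2 (log2 difference -1.27 ± 0.29, adjusted p = 0.00314). Lor, the main protein of the epidermal envelope, was near the level threshold at 0.390 to 0.596 CPM in PBS E2 and 0.826 to 1.34 CPM in DOX E2, a difference of 1.22 ± 0.33 (adjusted p = 0.00925) that was 1.01 and not called without the 4 libraries highest in Col17a1. In DOX E2 the adipocyte markers were low as well: 17 of 18 were called lower than in PBS E2, where 20.6% of all genes were. The marker sums were 306 to 650 CPM against 792 to 8734 CPM, and the part of these markers in the lower Ppl and Sbsn was not tested.

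**Figure D4:**
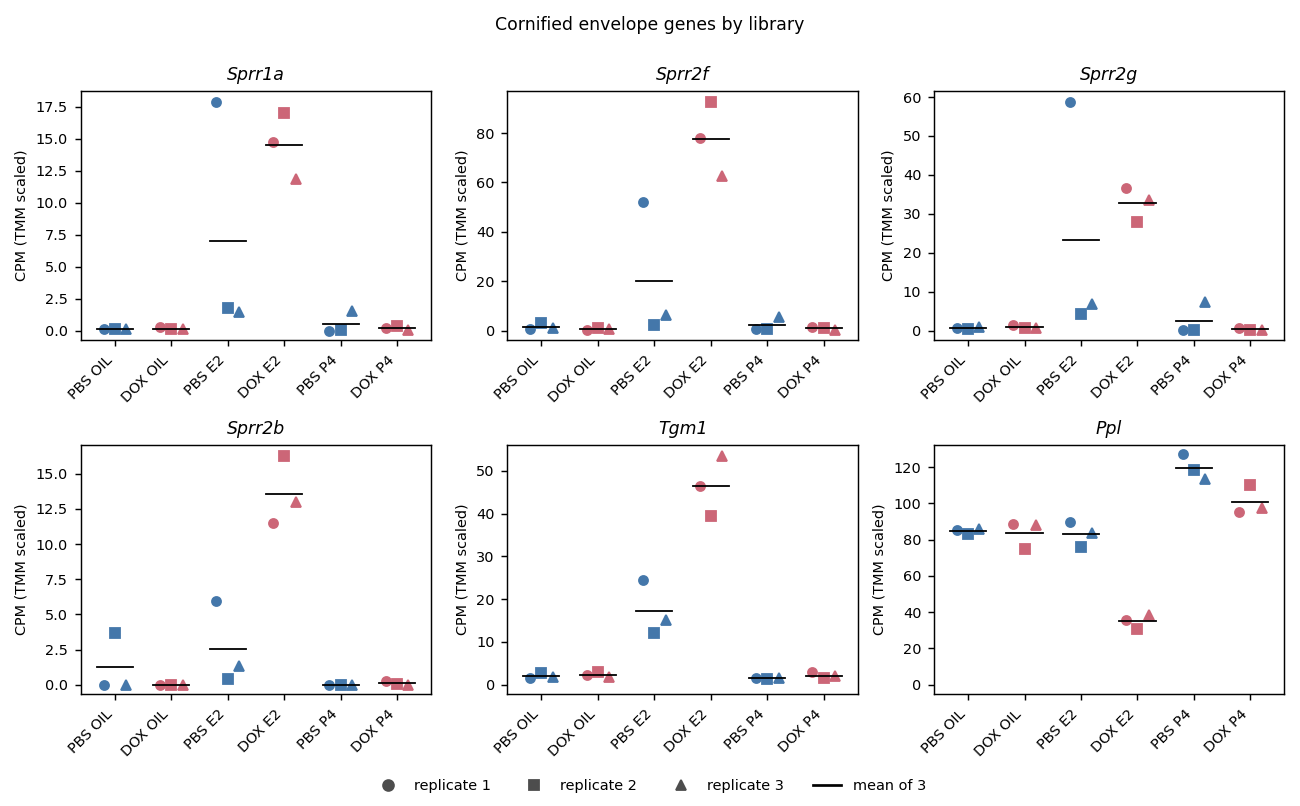
TMM-scaled CPM (vertical axis, linear) of Sprr1a, Sprr2f, Sprr2g, Sprr2b, Tgm1 and Ppl in each library of the 6 groups, with a line at the mean of 3. PBS E2 replicate 1 lies far above its companions for Sprr2f (52.0 CPM) and Sprr2g (58.7 CPM), Tgm1 separates OIL, PBS E2 and DOX E2, and Ppl is low in DOX E2 alone (30.8 to 38.3 CPM).

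Of the 10 cornified envelope members, 7 were called higher and 2 lower under E2 in the DOX arm, where 35.1% and 37.5% of all genes were. The PBS arm gave 4 higher and 1 lower, against 29.6% and 31.9%. Sprr1a, Sprr2b, Sprr2g and Sprr2a3 met the level rule only with E2 libraries, so these E2 counts are in part a description. DOX under E2 gave 3 higher (Tgm1, Lor and Sprr2a3) and 2 lower (Ppl and Sbsn), near the 20.4% and 20.6% of all genes, and 5 were not called. Both keratins outside the named classes behaved apart. Krt23, a type I keratin of glandular tissue, had 41.8, 15.8 and 12.8 CPM in PBS E2 against 13.3, 6.13 and 3.73 CPM in PBS OIL (log2 change 1.61 ± 0.56, adjusted p = 0.0199, edgeR, or 0.89 with an adjusted p of 0.182 without PBS E2 replicate 1, and not called without PBS OIL replicate 2 or 3 either), and 32.1, 7.89 and 41.6 CPM in DOX E2. Krt80 had 9.14, 10.8 and 12.4 CPM in DOX E2, and -0.44 ± 0.22 for DOX under E2 did not pass (adjusted p = 0.115).

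Over all 29 members, E2 in the PBS arm gave 13 called higher and 3 lower, where 61.4% of all genes were called in either direction (29.6% higher and 31.9% lower). The median log2 change was 1.12 against -0.09 for all genes, and it was the same with Krt81 set at its bound. In the DOX arm 23 were called higher and 2 lower, where 72.6% of all genes were called (35.1% higher and 37.5% lower), with a median of 4.26 against -0.08 that did not move with Sprr2b and Sprr2a3 at their bounds. Both contrasts touch the E2 libraries through which several members were chosen. DOX under E2 gave 9 higher and 2 lower of 29, or 11 in all where 41% of genes were called (20.4% higher and 20.6% lower), with a median of 1.02 against 0.02. The 2 E2 contrasts and this one share libraries, so they are not independent of each other.

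**Figure D5:**
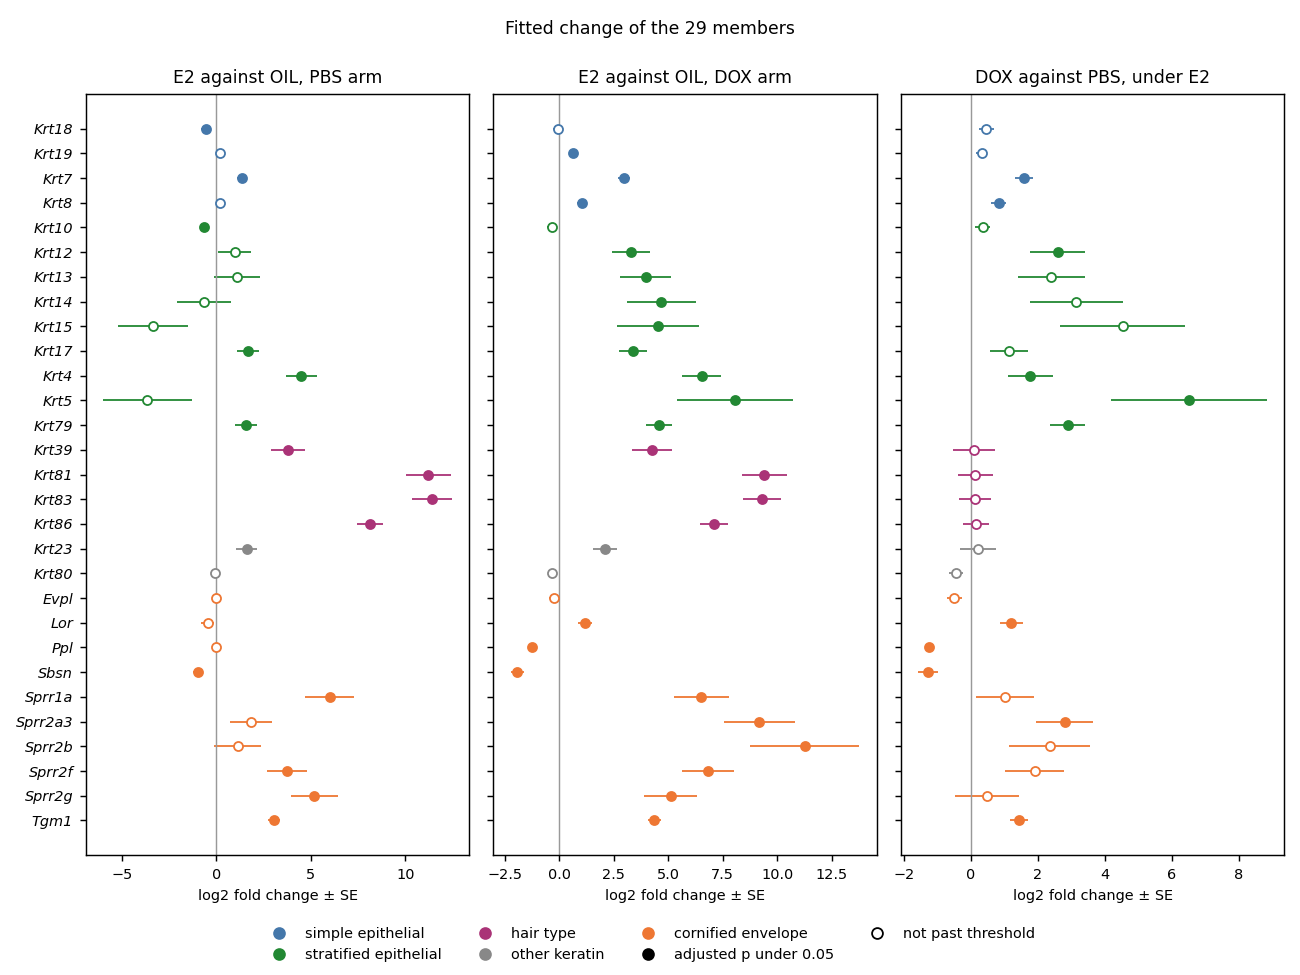
Fitted log2 fold change with its SE (horizontal axes, each panel with its own scale) of the 29 members for E2 against OIL in the PBS and DOX arms and for DOX against PBS under E2, coloured by class, filled where the adjusted p was under 0.05. Krt81, Krt83 and Krt86 are far to the right in both E2 panels and near 0 in the DOX panel, where Ppl and Sbsn are the 2 filled points left of 0 (Krt81, Sprr2b and Sprr2a3 had no count in an OIL group, so their fitted positions there depend on the prior count).

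The test of whether DOX changed the E2 response called 9 members, 8 higher and 1 lower, where 22.9% of all genes were called (10.1% higher and 12.8% lower). These were Krt7, Krt79, Tgm1, Lor, Sprr2a3, Sprr2b, Krt5 and Krt15 higher and Ppl lower. No hair-type keratin was among them. The median was 0.83 against 0.01 for all genes. Without the 4 libraries highest in Col17a1, and so with fewer libraries, only Krt7 and Ppl of the 9 stayed called. The values of Tgm1 (1.45), Krt79 (3.15) and Lor (1.62) stayed about as large, while Krt5 (3.84) and Krt15 (3.10) shrank. Sprr2b (10.58) and Sprr2a3 (7.68) had no count in DOX OIL, so their sizes depend on the prior count. The Sprr2b value also rested on PBS OIL replicate 2, which was kept in that run, and was 2.35 without it. Over the fits that left out 1 library the count ran from 3 to 10.

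No member was called for DOX in the absence of E2. Under OIL 0 of 29 were called, where 0.0129% of all genes were, and under P4 0 of 29, where 0% were. At an unadjusted p under 0.05 there was 1 of 29 members in each, Sprr2b under OIL and Ppl under P4. Of all 15494 genes, 1253 were under that level for OIL and 822 for P4. DESeq2's Wald test also called 0 of 29 in each. The test of whether DOX changed the P4 response called 0 of 29, where 0.00645% of genes were called, with 1 member at an unadjusted p under 0.05 and 0 by DESeq2. Over the fits that left out 1 library, 0 to 4 members and 413 to 854 of all genes were under that unadjusted level.

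Few members were called under P4. In the PBS arm 3 of 29 were called, where 31.8% of all genes were, and in the DOX arm 5 of 29, where 29.8% were. Krt80 fell in both, from 14.6, 14.7 and 17.1 CPM in PBS OIL to 8.37, 4.18 and 7.99 CPM in PBS P4 (log2 change -1.17 ± 0.22, adjusted p = 0.00125, edgeR) and to 5.97, 6.84 and 8.03 CPM in DOX P4 (-0.95 ± 0.22, adjusted p = 0.0047). Ppl rose to 127, 118 and 113 CPM in PBS P4, by 0.50 ± 0.09 (adjusted p = 0.00129), and to 95.1, 110 and 97.3 CPM in DOX P4, by 0.27 ± 0.09 (adjusted p = 0.041). Sbsn was lower in both arms, by -0.99 ± 0.28 (adjusted p = 0.014) and -0.82 ± 0.28 (adjusted p = 0.0363). Krt18 was lower in DOX P4 by -0.63 ± 0.23 (adjusted p = 0.0449), and Krt15 was called higher at 5.15 ± 1.88 (adjusted p = 0.0499), resting on 2 libraries. In the DOX arm the calls of Ppl, Sbsn, Krt18 and Krt15 were each lost in at least 4 of the 6 fits that left out 1 library.

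Promoters were searched for sites of factors that act on such genes in other tissues. RefSeq promoter entries (GRCm38.p6) were found for 18 of the 29 members, and the 250 bases before the start were read on both strands. The full estrogen response element, GGTCA and TGACC with 3 bases of any kind between, occurred in 0 of 18 and in 0.0639% of 32851 promoters, so that its absence from these windows says only that these letters are not there. The AP-1 site TGANTCA, which reads the same on both strands, occurred in 6 of 18 (33.3%), namely Krt13, Lor, Sbsn, Sprr1a, Sprr2b and Sprr2f, and in 7.82% of all genes with a promoter entry. A match is a description of the sequence and no measurement of binding. The 3 Sprr promoters are shown as far as they lie outside the annotated transcript, on the gene's strand, with the AP-1 letters in capitals, which begin at -146 and -116 from the start in Sprr1a (chr3:92485896-92486131, minus strand), at -195 in Sprr2b (chr3:92316455-92316619, plus strand) and at -197 in Sprr2f (chr3:92364937-92365186, plus strand).
Sprr1a: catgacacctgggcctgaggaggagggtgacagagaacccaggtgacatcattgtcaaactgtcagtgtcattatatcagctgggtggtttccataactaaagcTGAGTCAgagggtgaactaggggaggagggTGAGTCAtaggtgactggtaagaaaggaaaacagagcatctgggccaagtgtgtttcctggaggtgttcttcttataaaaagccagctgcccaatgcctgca
Sprr2b: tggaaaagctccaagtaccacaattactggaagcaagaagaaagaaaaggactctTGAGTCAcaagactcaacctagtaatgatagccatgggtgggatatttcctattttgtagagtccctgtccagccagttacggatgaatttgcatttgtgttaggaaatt
Sprr2f: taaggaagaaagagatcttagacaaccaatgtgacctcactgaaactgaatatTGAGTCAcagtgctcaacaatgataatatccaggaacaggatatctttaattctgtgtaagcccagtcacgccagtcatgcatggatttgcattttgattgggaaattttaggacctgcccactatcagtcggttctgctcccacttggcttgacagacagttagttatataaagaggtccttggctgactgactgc

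Desmosomes, the junctions to which keratin filaments attach, were described from a list of 17 genes, of which 13 were tested. Under E2, DOX gave 7 higher and 1 lower of 13, where 20.4% of all genes were called higher and 20.6% lower. Dsc2, a desmosomal cadherin, had 31.1 to 46.7 CPM in PBS E2 and 63.0 to 109 CPM in DOX E2 (log2 difference 1.22 ± 0.22, adjusted p = 0.000535, edgeR), and Pkp3, a plakophilin, had 9.80 to 16.4 and 20.7 to 30.7 CPM (0.99 ± 0.21, adjusted p = 0.00187). Dst, the cytolinker dystonin, was the one lower, from 755 to 808 CPM in PBS E2 to 363 to 460 CPM in DOX E2 (-0.99 ± 0.15, adjusted p = 0.000176). E2 gave 3 higher and 2 lower in the PBS arm, where 29.6% and 31.9% of all genes were called, and 9 higher and 1 lower in the DOX arm, where 35.1% and 37.5% were.

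Of 43 listed cornification genes outside the rule in the table, 14 had no count and 12 were tested. DOX under E2 gave 3 higher and 0 lower, where 20.4% of all genes were called higher and 20.6% lower: Tgm2, the tissue transglutaminase, at 740 to 1150 CPM in PBS E2 and 1475 to 2388 CPM in DOX E2 (0.95 ± 0.22, adjusted p = 0.00291, edgeR), Serpinb5, the epithelial serpin maspin (2.93 ± 0.91, adjusted p = 0.0183), and Asprv1, a protease of skin (1.06 ± 0.40, adjusted p = 0.0429). Among 20 regulators of epidermal differentiation, 19 were tested, with 3 higher and 2 lower for DOX under E2, and 5 higher and 7 lower for E2 in the PBS arm, with a median log2 change of -0.83. These counts are near or below the shares of all genes called, 20.4% and 20.6% for DOX under E2 and 29.6% and 31.9% for E2. The regulators with the smallest p for E2 both rose. Klf4, a factor of barrier formation, went from 42.3 to 51.6 CPM in PBS OIL to 176 to 234 CPM in PBS E2 (2.09 ± 0.18, adjusted p = 1.29e-07), and Notch1 from 99.7 to 106 CPM to 260 to 353 CPM (1.6 ± 0.11, adjusted p = 2.10e-08). Elf5, an epithelial transcription factor, rose with DOX under E2 by 2.43 ± 0.59 from a low level (adjusted p = 0.00434).

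8 of the 29 members overlap another annotated gene (Krt5, Krt7, Krt8, Krt10, Krt12, Krt80, Sbsn and Tgm1), and no source used here gives the strand setting of the counting. Reads of such pairs cannot be told apart if strand was not used, so these values carry that uncertainty.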

How the data were processed

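Whole uterus RNA of 18 libraries, 3 in each of 6 groups, was analysed from a table of counts per gene symbol deposited by the authors. Per the submitters' processing notes the genome build was GRCm38, and the tools they name include HISAT2 2.1.0 and StringTie 1.3.4d, besides tools for trimming, read quality and testing. No source used here gives the roles of these tools, the strand setting or the treatment of reads with several matches. The last bears on near-identical copies among the hair-type keratins and the Sprr2a genes.

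The deposited counts were analysed in R 4.3.3 with edgeR 4.0.16 and limma 3.58.1: filtering by expression, TMM scaling, and robust quasi-likelihood fits of all 6 groups together, with 12 residual degrees of freedom. Tests were run on 15494 genes for 9 comparisons, with Benjamini-Hochberg adjustment over all genes and a threshold of 0.05. The procedure was tested on simulated data. Depth was 18042357 to 39783785 counts per library. No pair of libraries of a group agreed within sampling noise (chi-square per degree of freedom 15.7 to 69.4). A ratio against a group with few counts has an exact 95% interval, and against 0 a floor of 3 counts over the group. CPM per kb used the length of the GENCODE M21 transcript. Sequences were read from the reference tables with Biopython 1.88. Figures were drawn with matplotlib 3.10.9.

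The members, classes and gene lists were chosen with earlier results of these data known. Values in every library are given for the 3 most abundant members of each class and, per comparison and class, for up to 3 called members with the largest change in each direction and a mean of at least 1 CPM. Some others are added for context, chosen after their values were seen. From each list outside the rule up to 3 genes with the smallest p are eligible. Alternatives were DESeq2 1.42.0 (Wald test), its size factors in edgeR, no filter, a filter of 1 CPM in 3 libraries, only the groups compared, a replicate block, and leaving out each library. Leaving out the 4 libraries highest in Col17a1 was chosen after seeing the data.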

Additional observations from a re-analysis of the deposited data

Results flagged for a closer look

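For 9 members the change with E2 differed between the DOX and PBS arms by edgeR's test of the difference itself (adjusted p under 0.05). Krt7 rose by 2.97 on the log2 scale in the DOX arm and 1.35 in the PBS arm, a difference of 1.62. Tgm1 rose by 4.37 and 3.06, a difference of 1.31, and Krt79 by 4.59 and 1.54, a difference of 3.05. Ppl had -1.26 in the DOX arm and -0.03 in the PBS arm, a difference of -1.23, and Lor had 1.17 and -0.47, a difference of 1.64.

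Of these 5, Krt7 and Ppl kept their call in each of 12 fits that left out 1 library, whereas Tgm1 lost it in 7, Lor in 4 (without PBS OIL replicate 1, DOX OIL replicate 3, PBS E2 replicate 3 or DOX E2 replicate 2) and Krt79 in 1 (2.34 without PBS OIL replicate 2). Krt79 met the level rule through E2 libraries alone and Sprr2a3 through DOX E2 alone, so their differences are descriptions.

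Krt5, Krt15, Sprr2b and Sprr2a3 make up the other 4. Krt5 had 8.07 in the DOX arm and -3.65 in the PBS arm, a difference of 11.72 that was 7.79 and no longer called without DOX E2 replicate 2. Krt15 had 4.52 and -3.38, a difference of 7.89 that was 5.38 and not called without the same library. Sprr2b gave a fitted difference of 10.16, which fell to 2.35 without PBS OIL replicate 2, and Sprr2a3 one of 7.35. Both genes had no count in DOX OIL, so these fitted sizes depend on the prior count.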

How the results depend on the processing

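Of the 69 calls of a member in a comparison, none reversed under any alternative run. The filter of 1 CPM in 3 libraries kept 69, DESeq2's size factors 68, DESeq2's Wald test 67, no filter 60, only the groups compared 53 of 67, and leaving out the 4 libraries highest in Col17a1 48. Without those 4 libraries, a choice made after seeing the data, members called were 7 instead of 11 for DOX under E2, 2 instead of 9 for the difference in E2 response, and 3 instead of 5 for P4 in the DOX arm. With no filter the last 2 counts were 5 and 3, and with only the groups compared the difference in E2 response called 4. With 1 library left out, members called ran from 7 to 13 for DOX under E2, 11 to 16 and 22 to 25 for E2 in the PBS and DOX arms, 3 to 10 for the difference in E2 response, and 3 to 5 and 1 to 3 for P4 in the PBS and DOX arms. The cause was not tested.

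Values that changed sign were all uncalled. Ppl under E2 in the PBS arm was 0.00056 with DESeq2's size factors, 0.020 with only the groups compared and 0.0041 by DESeq2, and -0.086 to 0.037 with 1 library left out. Krt5 in that comparison was 0.31 without the 4 libraries and -6.71 to 0.26 with 1 left out. For DOX under E2, leaving out 1 library gave -0.17 to 0.38 for Krt81, -0.18 to 0.41 for Krt83, -0.058 to 0.34 for Krt86, -0.14 to 0.74 for Krt39 and -0.013 to 2.57 for Sprr2g.

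Over all groups, replicate numbers did not pair the libraries. Of 45 pairs with the same number 12 correlated above 0.1, with a mean r of -0.0057, against 23 of 90 pairs with other numbers. Of 18 libraries 7 correlated best with their own number. Between PBS OIL and DOX OIL, same numbers gave r of 0.279, 0.365 and 0.085, and other numbers -0.312 to 0.038. A pairing of those groups alone was not tested. The fit with the replicate block kept 64 of the 69 calls and called 3 members instead of 5 for P4 in the DOX arm, 11 for DOX under E2, 15 and 25 for E2 in the PBS and DOX arms and 7 for the difference in E2 response.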
